A study of Mus musculus with 4 samples.

Results

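The genes of the fibroblast growth factor (FGF) pathway were examined at the RNA level in R1 mouse embryonic stem cells (ESCs) before and after differentiation with retinoic acid (RA). The members were chosen by symbol: 18 secreted FGF ligands, the 4 intracellular FGFs, the 4 tyrosine kinase receptors with the related Fgfrl1 and the co-receptor Klb, and 13 genes of ERK feedback (Spry1 to Spry4, Spred1 to Spred3, Dusp4 to Dusp6, Etv1, Etv4 and Etv5). These are 41 of the 24421 genes counted. Of these, 38 had a count in at least 1 library and 36 had a mean of at least 5 normalised counts; Fgf6, Fgf16 and Spry3 had no count in any library.

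FGF ligands are secreted proteins that bind a receptor tyrosine kinase together with heparan sulphate, and the activated receptor signals through RAS and the kinase ERK. Active ERK raises the transcription of its own inhibitors, among them the Sprouty and Spred proteins and the dual-specificity phosphatases, and of the PEA3 group of ETS transcription factors. In mouse ESCs the ligand made by the pluripotent cells themselves is FGF4, which moves cells out of self-renewal and towards lineage commitment.

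Total RNA of R1 cells, an established mouse ESC line, was sequenced with Illumina TruSeq in 2 Undiff and 2 Day4 libraries from biological replicates that were grown and treated separately. Undiff cells were kept in ESC medium, with leukaemia inhibitory factor (LIF) according to the methods, while the labels and the results text of the study call them embryoid bodies. Day4 cells were grown for 4 days as embryoid bodies without LIF and for a further 4 days with RA, at 2 µM in the methods and 2 mM in the sample labels. Going by the methods, the states therefore differed in LIF, in culture form and in days of culture besides RA. If Undiff cells were embryoid bodies, as labelled, the culture form was shared. No embryoid bodies grown to the same day without RA were analysed here.

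The libraries held 32099074 to 47730944 counts on genes. The labelled state was met by the markers of pluripotent cells, all 10 of which fell, with a summed level of 3938 and 4053 CPM (counts per 1000000 of the effective library size) in Undiff and 28.0 and 23.3 CPM in Day4. By the call rule given below, 22.2% of all genes were called higher in Day4 and 20.6% lower. Of 10 markers each, 9 of fibroblasts were called higher and 1 lower (69.2 to 76.8 CPM in Undiff, 1594 to 1746 in Day4). The counts were 8 and 2 for primitive and visceral endoderm (61.7 to 69.6 and 631 to 637). Most of that Day4 sum was Gata4 and Gata6, at means of 9621 and 10321 normalised counts. Dab2 was at 3220, Afp, Ttr and Foxa2 at 51.8 to 61.5, and Amn and Cubn were the 2 called lower. For endothelium and blood the counts were 7 and 2 (175 to 177 and 411 to 429). For cardiac and splanchnic mesoderm they were 5 and 3 (26.1 to 27.6 and 75.8 to 77.7). The called neural markers split evenly, with 4 called higher and 4 called lower. Their list had a summed level of 140 to 141 CPM in Undiff and 138 to 149.9 in Day4. In both Undiff libraries, 5 of these 10 markers were at 3 counts or fewer. The part of cell composition in the values below was not tested, and in bulk RNA fewer cells of a type and less RNA per cell cannot be told apart.

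Most members differed between the states, and in both directions. A gene was called a differentially expressed gene (DEG) when the adjusted p-value of the edgeR quasi-likelihood test was 0.05 or less, the log2 fold change was 1 or more in size, and the normalised counts averaged 5 or more. By this rule 26 of the 38 members with a count were DEGs, which is 68.4% against 42.8% of the 19891 genes tested. Only genes averaging 5 or more could be called, which were 36 of these members and 16472 of all genes tested. The 42.8%, here and below, thus includes more genes too low to be called. Of the 26, 14 were higher in Day4 and 12 were lower, while 22.2% of all genes were called higher and 20.6% lower. The libraries of the states did not overlap for 35 of the 38 members, or 92.1%, against 85.4% of all genes. The median log2 fold change was 0.34 over the members and -0.03 over all genes, and the median of the absolute values was 1.73 and 1.25. The secreted ligands held 6 DEGs in each direction, the intracellular FGFs 3 higher, the receptors and their partners 3 higher and 1 lower, and the feedback genes 2 higher and 5 lower.

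**Figure D1:**
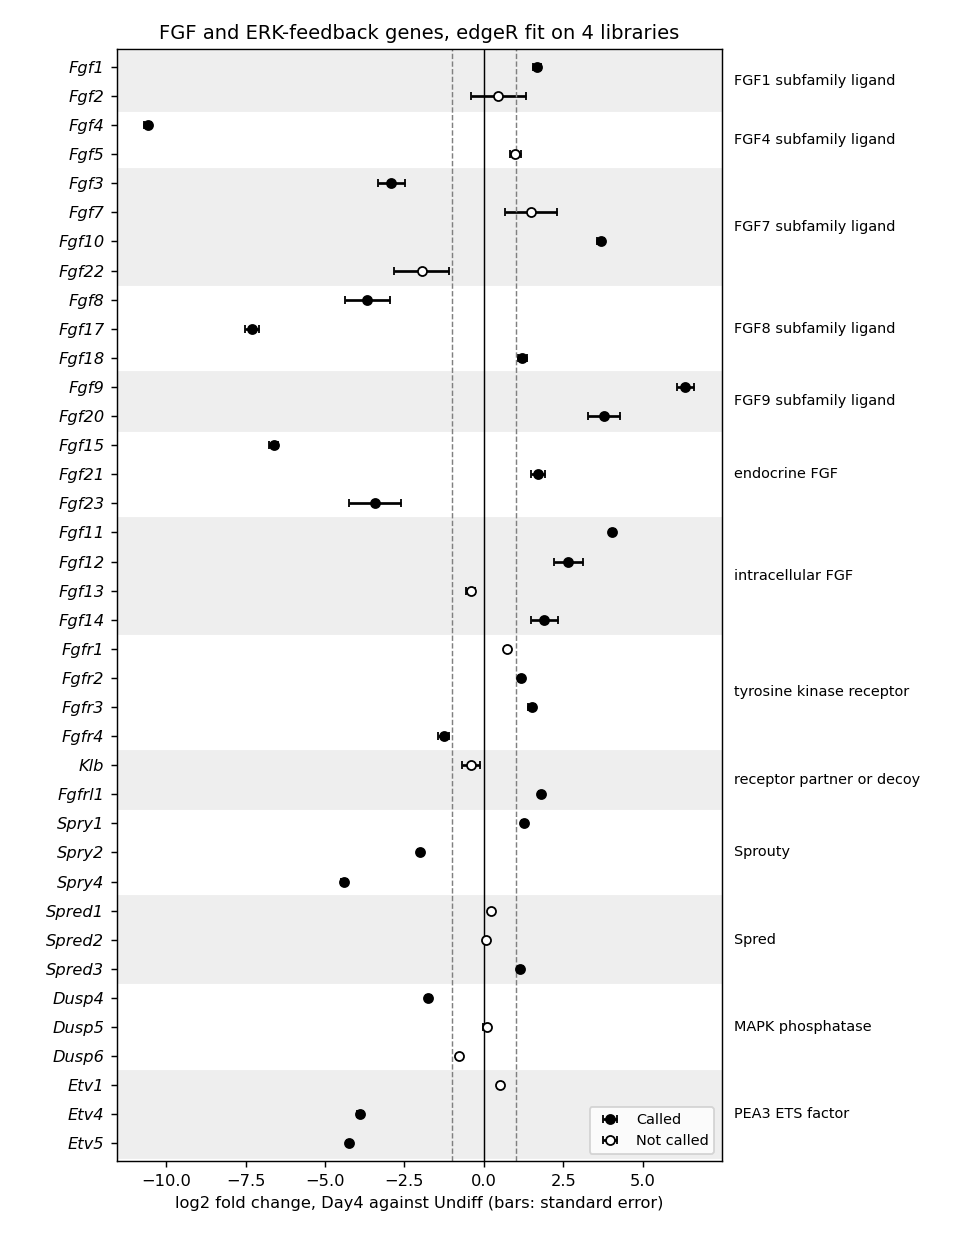
Log2 fold change of Day4 over Undiff for each of the 38 members with a count, filled where the gene is a DEG, with bars for the standard error of the edgeR fit and dashed lines at the minimum of 1 in either direction. The ligands span the widest range, from -10.58 for Fgf4 to 6.35 for Fgf9, while the receptors and their partners lie between -1.27 and 1.79.

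The secreted ligand that dominated Undiff was Fgf4. It had 8561 and 8117 normalised counts in the Undiff libraries and 4.18 and 6.14 in the Day4 libraries, the latter being 4 and 8 fragments. Both Undiff libraries were thus far above both Day4 libraries, by 1573-fold (95% exact interval 900.4 to 3045, counting error only), and the log2 fold change was -10.58 ± 0.11 (SE; edgeR adjusted p = 3.0e-16). Fgf4 belongs to a subfamily with Fgf5 and Fgf6. Fgf5, a marker of the epiblast that has left the naive state, had 81.3 and 76.6 normalised counts in Undiff and 139 and 171 in Day4. The states did not overlap, but its log2 fold change of 0.99 ± 0.17 (edgeR adjusted p = 1.1e-04) lay just under the minimum of 1, and it passed that minimum without Undiff replicate 1 (1.04) or without Day4 replicate 1 (1.11).

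Fgf17 and Fgf8, which pattern the early embryo and the midbrain, fell with Fgf4, whereas Fgf18 of the same subfamily rose. Fgf17 had 693 and 748 normalised counts in Undiff and 1.04 and 6.91 in Day4. This was a log2 fold change of -7.31 ± 0.22 (edgeR adjusted p = 2.6e-12), which became -9.28 without Day4 replicate 2 and -6.68 without Day4 replicate 1, since the Day4 libraries held only 1 and 9 fragments. Fgf8 was low in both states, at 18.8 and 17.9 normalised counts in Undiff and at 0 and 2.30 in Day4, so that all 3 Day4 fragments came from 1 library. The level of Fgf8 was 13.8-fold higher in Undiff (95% exact interval 4.34 to 70.6; edgeR adjusted p = 3.2e-04), with a log2 fold change between -7.10 without Day4 replicate 2 and -2.93 without Day4 replicate 1. Fgf18, a ligand of bone and lung development, had 73.99 and 74.2 normalised counts in Undiff and 165 and 177 in Day4, a log2 fold change of 1.21 ± 0.15 (edgeR adjusted p = 6.2e-06).

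Fgf10, the mesenchymal ligand of lung and limb bud outgrowth, was the ligand with the most counts per kilobase in Day4. It rose from 66.7 and 55.0 normalised counts in Undiff to 798 and 775 in Day4, with no overlap and a log2 fold change of 3.68 ± 0.12 (edgeR adjusted p = 3.8e-12). Fgf3, which acts in inner ear and tail development, moved the other way, from 43.8 and 37.1 normalised counts to 8.36 and 3.07. Its log2 fold change was -2.91 ± 0.43 (edgeR adjusted p = 3.0e-05), and ranged from -3.67 without Day4 replicate 1 to -2.29 without Day4 replicate 2. The other members of this subfamily, Fgf7 and Fgf22, had at most 11 fragments in any library and were not called. Fgf22 was at 7.30 and 7.18 normalised counts in Undiff and 0 and 3.07 in Day4 (log2 fold change -1.96 ± 0.86, edgeR adjusted p = 0.053), and Fgf7 at 5.21 and 0 against 7.31 and 8.45 (1.48 ± 0.81, edgeR adjusted p = 0.11). Both values moved when 1 library was left out, to -5.77 for Fgf22 without Day4 replicate 2 and to 6.06 for Fgf7 without Undiff replicate 1, where Fgf7 was called.

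Fgf9, a ligand of gonad and lung development, had the highest log2 fold change of all members. The Undiff libraries held 2.08 and 4.79 normalised counts, which were 2 and 4 fragments, and the Day4 libraries 276 and 289. The log2 fold change was 6.35 ± 0.27 (edgeR adjusted p = 7.7e-11) and the level was 84.7-fold higher in Day4 (95% exact interval 38.7 to 232), with 7.01 as the log2 fold change without Undiff replicate 2. Fgf20 of the same subfamily, known from inner ear and kidney, rose as well, from 4.17 and 2.39 normalised counts to 60.6 and 37.6 (log2 fold change 3.78 ± 0.51, edgeR adjusted p = 1.4e-05). Fgf20 shares 202 exon bases with Micu3 on the opposite strand, and the methods say that gene counting took account of strandedness but name only ONT Direct RNA as strand-specific, without the option used for TruSeq. Fgf1, a broadly acting ligand that binds all the receptors, rose from 102 and 126 normalised counts to 358 and 366 (log2 fold change 1.68 ± 0.12, edgeR adjusted p = 2.4e-08). Fgf2, its closest relative, had 1 to 4 fragments in every library and its states overlapped.

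The endocrine FGFs act at a distance, because they bind heparan sulphate weakly and need a Klotho co-receptor. Fgf15, the mouse counterpart of human FGF19 and a regulator of bile acid synthesis in the adult, fell from 1064 and 1046 normalised counts in Undiff to 10.4 and 10.8 in Day4. The replicates of each state lay close together, and the log2 fold change was -6.62 ± 0.14 (edgeR adjusted p = 8.8e-14). Fgf21, a metabolic hormone, rose from 28.1 and 26.3 normalised counts to 87.8 and 89.8 (log2 fold change 1.70 ± 0.22, edgeR adjusted p = 1.0e-05). Fgf23, the phosphate-regulating hormone of bone, had 19.8 and 10.8 normalised counts in Undiff and 3.13 and 0 in Day4. Its log2 fold change of -3.44 ± 0.82 (edgeR adjusted p = 1.7e-03) became -7.02 without Day4 replicate 1 and -2.29 without Day4 replicate 2. Without Undiff replicate 1 it was -2.91 and no longer called, the mean over the libraries left being under 5.

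**Figure D2:**
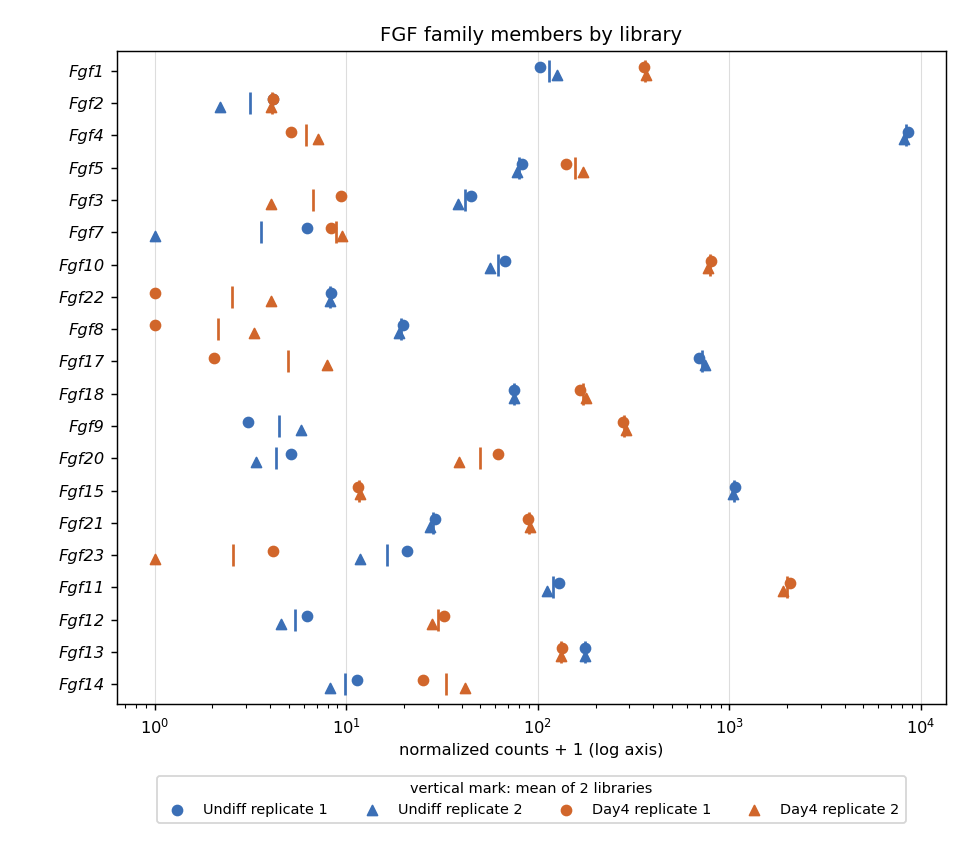
Normalised counts plus 1 of each FGF family member with a count, on a log axis; blue marks Undiff and orange Day4, with a circle for replicate 1, a triangle for replicate 2 and a vertical mark at the mean. Before the 1 is added, Fgf4, Fgf17 and Fgf15 lie between 693 and 8561 in Undiff and between 1.04 and 10.8 in Day4, while Fgf9, Fgf10 and Fgf11 lie between 2.08 and 128 in Undiff and between 276 and 2064 in Day4.

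To compare ligands with each other, counts were divided by the exon length of each gene and expressed as a share of the sum over the 18 secreted ligands. This sum was 97.4 and 94.1 CPM per kilobase in the Undiff libraries and 17 and 17.3 in the Day4 libraries. In Undiff, Fgf4 made up 73.5% and 72.1%, Fgf17 11.2% and 12.6% and Fgf15 9.54% and 9.71% of the sum. In Day4 each of these was below 1%, and no ligand exceeded 27.3%.

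Fgf10 took 27.3% and 26.0% of the ligand sum in Day4, against 0.397% and 0.340% in Undiff. Fgf18 followed with 21.9% and 22.9%, and Fgf21 with 14.5% and 14.6%, and neither overlapped with its neighbours in this order. Fgf1 (10.3% and 10.3%) lay above Fgf9 (9.35% and 9.57%) in both libraries, and Fgf5 (8.75% and 10.6%) overlapped with both of them. The order below Fgf10 depended on the scaling by length. Without it, the mean normalised counts in Day4 were 362 for Fgf1, 282 for Fgf9 and 171 for Fgf18. Those of Fgf5 and Fgf21 were 155 and 88.8. With 2 libraries against 2, the 2-sided exact permutation test of a share cannot give a p-value under 0.333, which was the value for Fgf4 and for Fgf10.

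**Figure D3:**
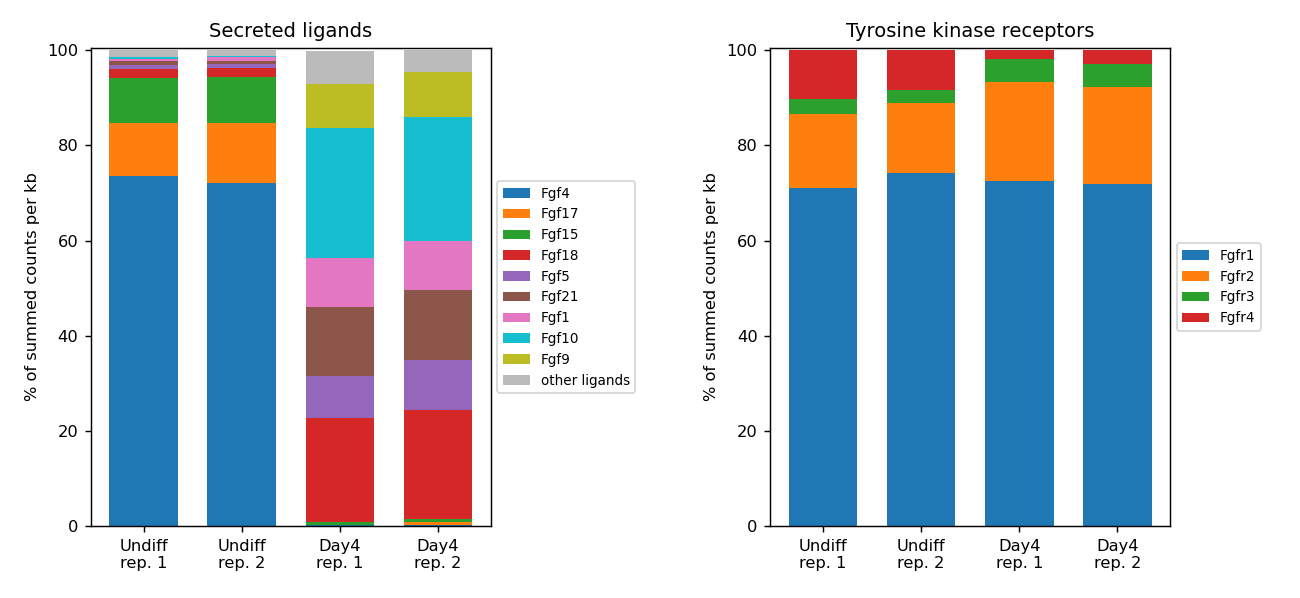
Share of the secreted ligands (left) and of the tyrosine kinase receptors (right) in their summed counts per kilobase, as stacked bars of 100% for each library. Fgf4 fills 72.1% to 73.5% of the Undiff ligand bars and 0.206% to 0.296% of the Day4 bars, whereas Fgfr1 fills 71.1% to 74.2% of all 4 receptor bars.

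Fgf3, Fgf4 and Fgf15 are neighbours on chromosome 7, at chr7:144838083-144844436, chr7:144847367-144865243 and chr7:144896531-144900953 on the forward strand (GRCm38, GENCODE gene bounds; the RefSeq start of Fgf4 lies inside these bounds). They lie within 62.9 kb, with gaps of 2.93 kb and 31.3 kb, and no other counted gene lies between them. All 3 were lower in Day4, with log2 fold changes of -2.91, -10.58 and -6.62. Fgf9 and Fgf17, which moved in opposite directions, lie far apart on chromosome 14, at chr14:58070547-58112720 and chr14:70636203-70642268.

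The 250 bases upstream of the annotated start are shown for Fgf4, the leading ligand of Undiff, for Fgf10, the leading ligand of Day4, and for Fgf9, the ligand with the highest log2 fold change (RefSeq, GRCm38.p6, each 5′ to 3′ on the forward strand of its gene, ending at the base before the start). The windows are chr7:144861136-144861385, chr13:118714449-118714698 and chr14:58072436-58072685. Capitals mark the letters GGGCGG of a GC box and CCAAT of a CCAAT box, on either strand.
Fgf4: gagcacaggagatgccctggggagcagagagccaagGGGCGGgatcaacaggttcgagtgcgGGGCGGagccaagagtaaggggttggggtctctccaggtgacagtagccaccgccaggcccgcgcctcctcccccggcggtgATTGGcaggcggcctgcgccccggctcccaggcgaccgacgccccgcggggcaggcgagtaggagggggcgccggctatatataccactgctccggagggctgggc
Fgf10: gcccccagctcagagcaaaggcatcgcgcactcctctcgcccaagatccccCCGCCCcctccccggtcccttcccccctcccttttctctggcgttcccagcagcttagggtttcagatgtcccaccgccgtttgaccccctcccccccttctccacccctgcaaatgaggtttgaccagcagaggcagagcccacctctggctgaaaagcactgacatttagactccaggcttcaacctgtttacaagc
Fgf9: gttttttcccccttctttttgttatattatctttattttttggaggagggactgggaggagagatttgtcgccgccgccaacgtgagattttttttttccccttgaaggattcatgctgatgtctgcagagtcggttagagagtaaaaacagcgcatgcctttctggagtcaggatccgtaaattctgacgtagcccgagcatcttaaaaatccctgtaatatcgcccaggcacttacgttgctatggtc
The Fgf4 window was 71.2% G and C and held GGGCGG at -214 and -188 and CCAAT on the other strand at -106. The Fgf10 window was 61.2% G and C and held GGGCGG once, on the other strand at -199, and the Fgf9 window was 44.8% G and C and held none of the motifs searched. Promoters of 30 of the 41 members were in the table; those of Dusp4, Etv4, Fgf1, Fgf8, Fgf15, Fgf16, Fgf17, Fgf20, Fgfr1, Spry3 and Spry4 were not used here.

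Over the 30 members, GGGCGG was found for 20 members, or 66.7%, against 35.4% of the 27025 genes with a promoter of this length. CCAAT was found for 11 members (36.7% against 37.5%), TATAAA for 2 (6.67% against 14.3%) and AGGTCA, the core of a retinoid receptor element, for 3 (10% against 15.8%). CCGGAAG, an ETS core, was found for 1 member (3.33% against 7.83%). Both strands were searched, and no matches overlap in the windows shown. A match of letters is a description of the sequence, and says nothing about binding.

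The intracellular FGFs are not secreted and do not act through the FGF receptors as the ligands do; they bind voltage-gated sodium channels in excitable cells. Fgf11 was the strongest of them in Day4, with 2064 and 1914 normalised counts against 128 and 110 in Undiff. The states did not overlap, and the log2 fold change was 4.05 ± 0.09 (edgeR adjusted p = 1.7e-13). Fgf12 rose from 5.21 and 3.59 normalised counts to 31.3 and 26.9 (log2 fold change 2.66 ± 0.46, edgeR adjusted p = 1.3e-04). Fgf14 rose from 10.4 and 7.18 to 24.0 and 40.7 (log2 fold change 1.90 ± 0.43, edgeR adjusted p = 1.2e-03). Both were low in either state. In Day4, Fgf11 stood at 17.5 CPM per kilobase against 0.875 for Fgf13, 0.207 for Fgf14 and 0.125 for Fgf12. Fgf13 had 176 and 176 normalised counts in Undiff and 133 and 130.5 in Day4, and its log2 fold change of -0.42 ± 0.13 (edgeR adjusted p = 8.9e-03) was below the minimum.

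The log2 fold changes of the receptors, from -1.27 to 1.51, spanned a narrower range than those of the secreted ligands, from -10.58 to 6.35. Several ligands lay in or near the receptor range, among them Fgf18 (1.21), Fgf1 (1.68) and Fgf21 (1.70). The difference between the groups was not tested. Fgfr1, the main receptor of ESCs, had 4664 and 4778 normalised counts in Undiff and 7761 and 7774 in Day4. The states did not overlap, but the difference of 0.72 ± 0.04 on the log2 scale (edgeR adjusted p = 2.2e-09) stayed below the minimum of 1. Fgfr2, the epithelial receptor of FGF10 in one of its isoforms, rose from 1063 and 995.5 normalised counts to 2326 and 2283 (log2 fold change 1.16 ± 0.06, edgeR adjusted p = 3.6e-10). Fgfr3, known as a brake on bone growth, rose from 147 and 123 to 383 and 392 (log2 fold change 1.51 ± 0.11, edgeR adjusted p = 3.5e-08). Fgfr4, the receptor through which FGF15 acts in liver, was the single receptor that fell, from 242 and 194 normalised counts to 70.0 and 107. Its log2 fold change was -1.27 ± 0.18 (edgeR adjusted p = 2.4e-05), and relative to its level, the 2 Day4 libraries differed from each other more than those of the other receptors did. In GENCODE vM21, Fgfr2 shares 314 exon bases with Ctbp2 on the same strand and Fgfr1 shares 164 with Gm16159 on the opposite strand. The gene models used for counting may differ from it.

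Per kilobase of exon, the 4 receptors summed to 17.7 and 17.4 CPM in Undiff and to 29.0 and 29.2 CPM in Day4. The order was Fgfr1, Fgfr2, Fgfr4 and Fgfr3 in Undiff and Fgfr1, Fgfr2, Fgfr3 and Fgfr4 in Day4. Fgfr1 made up 71.1% and 74.2% of the sum in Undiff and 72.5% and 72.0% in Day4, so that the states overlapped. The difference of -0.416 percentage points turned to 1.11 without Undiff replicate 2, and was -3.26 with the length of the longest transcript and -3.72 without scaling by length. The share of Fgfr2 was 15.5% and 14.8% in Undiff and 20.8% and 20.2% in Day4, that of Fgfr3 3.09% and 2.64% against 4.94% and 5.00%, and that of Fgfr4 10.3% and 8.39% against 1.82% and 2.76%. None of these shares could pass an exact permutation test at this number of libraries (smallest p = 0.333). The difference in the Fgfr4 share, -7.05 percentage points, was -2.73 without scaling by length and -3.95 with the length of the longest transcript.

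Fgfrl1, a receptor relative without a kinase domain, rose from 577 and 554 normalised counts to 1997 and 1924 (log2 fold change 1.79 ± 0.06, edgeR adjusted p = 1.1e-11). At 18.8 CPM per kilobase in Day4 its level was close to the 21.0 of Fgfr1, whereas in Undiff it was 5.43 against 12.8. This closeness depended on the length used, since the merged exons of Fgfr1 (9875 bases) far exceed its longest transcript (5041 bases). For Fgfrl1 the same lengths were 2782 and 2329 bases. Mean normalised counts in Day4 were 1961 for Fgfrl1 and 7768 for Fgfr1. Klb, the co-receptor of FGF15 and FGF21, had 25.1 to 50.02 normalised counts in the 4 libraries, and its states overlapped (log2 fold change -0.41 ± 0.29, edgeR adjusted p = 0.22).

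**Figure D4:**
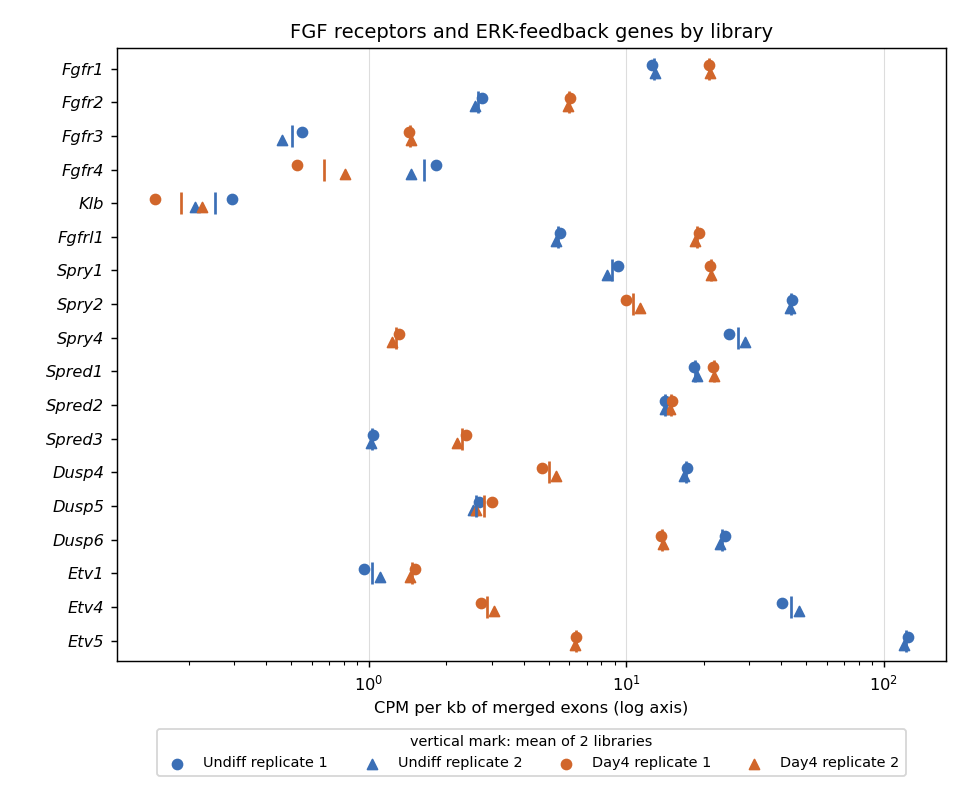
Levels of the receptors, their partners and the ERK feedback genes in CPM per kilobase of merged exons, on a log axis; blue marks Undiff and orange Day4, with a circle for replicate 1, a triangle for replicate 2 and a vertical mark at the mean. Etv5, Etv4 and Spry4 show the widest gaps, with Undiff above Day4, and Spry1, Fgfr2 and Fgfrl1 show Day4 above Undiff.

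Among the feedback genes the strongest differences were in the PEA3 factors and in Spry4. Etv5, an ETS factor that ERK signalling induces, had 19056 and 18352 normalised counts in Undiff and 978 and 971 in Day4. The libraries of each state lay close together, and the level was 19.2-fold higher in Undiff (95% exact interval 18.4 to 20.1), a log2 fold change of -4.26 ± 0.05 (edgeR adjusted p = 5.4e-16). Etv4, the founding member of the group, fell from 4663 and 5454 normalised counts to 315.5 and 355 (log2 fold change -3.90 ± 0.09, edgeR adjusted p = 1.4e-13). Etv1 did not move with them. It had 477 and 548 normalised counts in Undiff and 748 and 718 in Day4, and its log2 fold change of 0.52 ± 0.08 (edgeR adjusted p = 5.8e-05) was below the minimum and in the other direction. Per kilobase, Etv5 was the highest of all 41 members in Undiff, at 122 CPM, followed by Fgf4 at 69.7.

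The Sprouty genes, whose proteins restrain RAS and ERK downstream of the receptors, were split. Spry4 fell from 4473 and 5151 normalised counts to 234 and 219, with a log2 fold change of -4.41 ± 0.09 (edgeR adjusted p = 4.0e-14). Spry2 fell from 3431 and 3359 to 779 and 884.5 (log2 fold change -2.02 ± 0.06, edgeR adjusted p = 3.3e-12). Spry1 rose, from 1005 and 910.5 normalised counts to 2296 and 2323 (log2 fold change 1.27 ± 0.06, edgeR adjusted p = 2.6e-10), and in none of the 3 did the states overlap. The order of levels per kilobase was therefore Spry2, Spry4 and Spry1 in Undiff, at 43.5, 27.0 and 8.80 CPM, and Spry1, Spry2 and Spry4 in Day4, at 21.2, 10.6 and 1.27 CPM.

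The Spred genes encode related inhibitors that hold back RAF. Spred1 had 4629 and 4775 normalised counts in Undiff and 5531 and 5536 in Day4 (log2 fold change 0.24 ± 0.04, edgeR adjusted p = 2.3e-04), below the minimum. Spred2 had 2434 and 2446 in Undiff and 2609 and 2546 in Day4 (log2 fold change 0.08 ± 0.05, edgeR adjusted p = 0.16). Spred3 was the DEG among them, with 242 and 237 normalised counts in Undiff and 554 and 513 in Day4 (log2 fold change 1.15 ± 0.09, edgeR adjusted p = 6.9e-08). It was also the lowest of them per kilobase, at 1.03 CPM in Undiff and 2.29 in Day4, and shares 202 exon bases with Ggn on the opposite strand.

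The dual-specificity phosphatases remove phosphate from ERK, Dusp6 in the cytoplasm and Dusp4 and Dusp5 in the nucleus. Dusp4 fell from 1765 and 1716 normalised counts to 482 and 547 (log2 fold change -1.75 ± 0.07, edgeR adjusted p = 4.2e-11). Dusp6 had 2828 and 2704 in Undiff and 1605 and 1627 in Day4, with no overlap, and its log2 fold change of -0.78 ± 0.05 (edgeR adjusted p = 8.7e-09) stayed below the minimum. Dusp5 had 247 and 236 in Undiff and 278 and 242 in Day4, so that its states overlapped (log2 fold change 0.09 ± 0.11, edgeR adjusted p = 0.45). Dusp6, which is often read as a reporter of FGF signalling, thus differed much less than Etv5, Etv4 and Spry4. This difference in size between genes was not tested.

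Beyond the members, the other genes of the pathway were described by fixed lists. Of 25 genes of the RAS-ERK cascade, 4 were higher and 3 lower in Day4, which is 28.0% called against 42.8% of all genes, with a median log2 fold change of 0.03. Their summed level was 2977 and 3028 CPM in Undiff and 3003 and 3015 CPM in Day4. The docking protein Gab2 rose from 76.1 and 62.2 normalised counts to 728 and 759 (log2 fold change 3.42), and the RAS exchange factor Sos2 from 625 and 627 to 2833 and 2965 (2.21). The kinase Braf fell by 1.26 on the log2 scale, from 4544 and 4765 to 1865 and 2006 normalised counts. Because several of these genes lay near the minimum, 11 were higher and 10 lower when no minimum fold change was set. The share of all genes without that minimum was not taken, so the 42.8% is no background for these counts.

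Of 29 counted genes for heparan sulphate and membrane cofactors, 17 were higher and 3 lower, or 69.0% called against 42.8% of all genes. Their median log2 fold change was 1.47. The summed level was 1293 and 1276 CPM in Undiff and 3741 and 3723 CPM in Day4. Gpc3 alone added far more to this rise than any other gene of the list. The glypicans Gpc3 and Gpc6 were among those that rose, Gpc3 from 3159 and 2771 to 49809.8 and 50054 normalised counts and Gpc6 from 55.2 and 45.5 to 2437 and 2419 (log2 fold change 4.07 and 5.58). Fgfbp1, a secreted carrier that frees FGFs from heparan sulphate, fell from 742 and 853 normalised counts to 5.22 and 2.30, a log2 fold change of -7.76 ± 0.22 (edgeR adjusted p = 1.3e-12). Gpc4 fell from 1204 and 1313 to 347 and 393 (log2 fold change -1.75).

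Of 29 other ERK feedback and immediate-early genes, 10 were higher and 8 lower, or 62.1% called against 42.8% of all genes, with a median log2 fold change of 0.35. Jun, a subunit of AP-1, rose from 302 and 268 normalised counts to 3331 and 3020.4 (log2 fold change 3.47), and Fosl2, another subunit, from 301 and 288 to 1313 and 1375 (2.19). The phosphatase Dusp9, a relative of Dusp6, fell from 3938 and 3793 to 507 and 508 (log2 fold change -2.93), and Dusp1 from 1931 and 1681 to 542 and 587 (-1.67). The genes named from each list were the called ones with the highest and lowest fold changes and at least 100 normalised counts in the higher state.

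**Figure D5:**
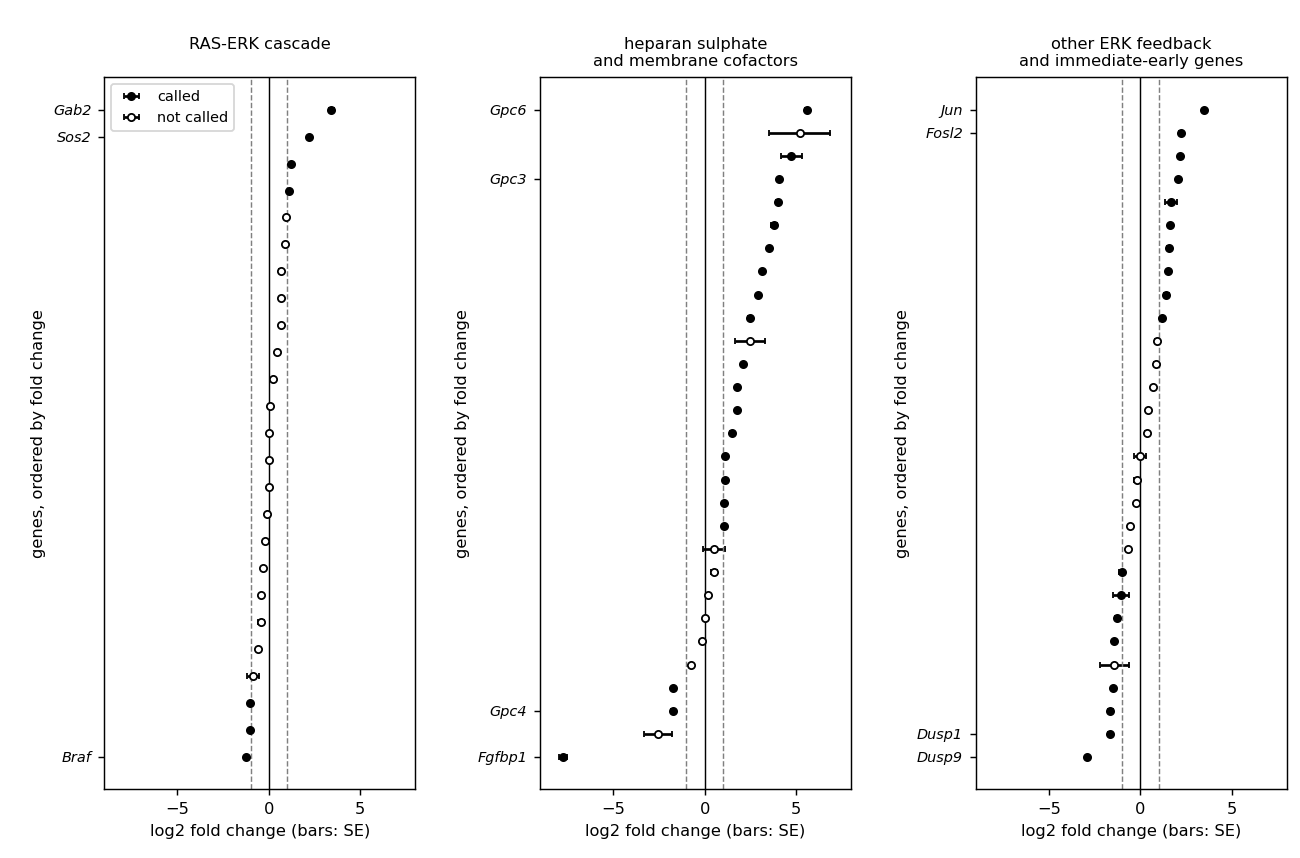
Log2 fold change of Day4 over Undiff for every tested gene of the 3 pathway lists, with 1 point per gene in order of fold change, filled where the gene is a DEG, bars for the standard error and dashed lines at the minimum of 1 in either direction. The genes described in the text are labelled. Most of the cascade genes lie between the dashed lines (median 0.03), while the heparan sulphate genes lie mostly above 0 with a median of 1.47.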

How the data were processed

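Gene counts of 2 Undiff and 2 Day4 Illumina TruSeq libraries were analysed. The authors used cutadapt for trimming, STAR 2.4.2a for alignment to mm10 and htseq-count for counting uniquely aligned fragments, so the deposited values are raw whole-number counts per gene. The methods say that strandedness was taken into account and name only ONT Direct RNA as strand-specific, without an option for TruSeq. The labels name a stranded total RNA kit besides the TruSeq kit of the methods. Between 7.50% and 13.2% of fragments fell on no gene and stayed out of library sizes.

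Groups and replicates were taken from the labels. Counts were scaled by TMM and tested with edgeR 4.0.16 in R 4.3.3 (glmQLFit without legacy dispersions, glmQLFTest) over the 19891 genes with any count, with Benjamini-Hochberg adjustment. The thresholds for a DEG were those of the study: adjusted p 0.05, log2 fold change 1 in either direction and 5 normalised counts on average. Each count was divided by its effective library size and multiplied by the geometric mean of these sizes to give normalised counts. The SE was the log2 fold change divided by the square root of F. DESeq2 1.42.0, the tool of the authors, other scalings, filters and leaving out each library were alternatives. Lengths were merged exons of GENCODE vM21, which also gave the overlaps between genes. For gene counting, the methods name an mm10 annotation from iGenomes UCSC, while another note of the study names GENCODE. The gene models behind the counts may therefore differ from those of the lengths and overlaps. A count of 3 was the floor of a library, 0.0628 to 0.0935 CPM. Intervals cover counting error only, and PCR copies were not told apart.

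The members, lists and rules were chosen with earlier results of these data known. Values per library were given for every DEG among the members and for members not called with a mean of at least 100 normalised counts; of each list, up to 2 called genes in each direction with at least 100 normalised counts in the higher state were named, except for an item that is not reported here.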

Additional observations from a re-analysis of the deposited data

How the results depend on the processing

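With no minimum fold change, 18 members were higher and 14 lower in place of 14 and 12. The share of all genes called without that minimum was not taken, so such counts have no background beside them. Under the other alternatives in which they were tested, 34 of the 38 members had the same call and direction, 25 of them DEGs; the exceptions were Fgf5, Fgf7, Fgf23 and Fgf2, which was never a DEG and whose log2 fold change lay between -0.0128 and 1.29 when a library was left out (0.45 with all). The filter on low counts left 35 members. Fgf5 passed the minimum with library totals (1.06), and Fgf7, at 0 in 1 Undiff library, had a log2 fold change of 6.06 without Undiff replicate 1. Under these alternatives, 26 or 27 members were DEGs, with 26 by DESeq2 with the settings of the authors. Without that minimum, 11 genes of the RAS-ERK cascade were higher and 10 lower, in place of 4 and 3, and with library totals 1 was lower; fewer or more genes near the minimum were then past it. The replicate block left the members at 14 higher and 12 lower and all genes at 8515 DEGs in place of 8521. Deviations of same-numbered libraries from their state means correlated at -0.01 across 16472 genes, so no shared deviation was seen. With 1 difference between replicates per state, this cannot show whether the samples were paired. Differences in share depended on the length used. With the longest transcript and with no length they were -3.26 and -3.72 points for Fgfr1 (-0.416 with merged exons), 1.68 and 1.46 for Fgfr3, -3.95 and -2.73 for Fgfr4, -68.9 and -78.7 for Fgf4, and without length 40.1 for Fgf10. Leaving out 1 library moved the Fgfr1 difference from -1.94 to 1.11 points, the sign turning without Undiff replicate 2. Fgf2, Fgf7 and Fgf22 had at most 11 fragments in any library, and none of them was a DEG with all libraries; with the size factors of DESeq2 in edgeR the adjusted p of Fgf22 was 0.048, its mean count being under 5.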

Other observations

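The 3 clustered ligand genes on chromosome 7 have 6 further counted genes within 300 kb on either side. Of these, 2 were called higher in Day4, 2 were called lower and 2 were not called. Over all genes, 22.2% were called higher and 20.6% lower, and 6 genes are too few to set against these shares. These genes were looked at after the values of the cluster were seen. The cell cycle gene Ccnd1 fell from 5463 and 5494 normalised counts to 1499 and 1557 (log2 fold change -1.84, edgeR adjusted p = 6.4e-13), and the lysosomal channel gene Tpcn2 from 563.8 and 563.6 to 263 and 235 (-1.19, edgeR adjusted p = 3.9e-08). On the other side, the chloride channel gene Ano1 rose from 44.8 and 38.3 normalised counts to 499 and 523 (3.61, edgeR adjusted p = 2.3e-11), and the death receptor adaptor Fadd from 193 and 195 to 915 and 932 (2.25, edgeR adjusted p = 2.0e-11). Ppfia1 had 3932 to 4067 normalised counts in the 4 libraries, and Bc1 at most 3.13. The called genes around the 3 ligands thus lay in both directions, as did the called genes of the whole set.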
